A study of Mus musculus with 11 samples.

Results

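Endothelial cells (ECs) hold on to each other through adherens junctions, tight junctions and further homophilic contacts, and the 9 genes described here encode membrane proteins of these contacts and 1 of their scaffolds. They are *Cdh5*, *Pecam1*, *Mcam*, *Esam*, *F11r*, *Jam2*, *Jam3*, *Tjp1* and *Ocln*. They were chosen by name for their role, with earlier results of these data known. Each was found among the 29307 genes of the deposited count table. All 9 also passed the filter on low counts, as did 12905 genes in all. *Jam2* and *Esam* were higher in germ-free (GF) than in conventionally raised (CONV-R) mice, by 1.66-fold and 1.54-fold, while none of the 9 was called lower. Over all tested genes, 4.80% were called higher and 2.67% lower. With 1 library left out, *Jam2* was called in all 11 fits and *Esam* in 5.

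The study asked how the gut microbiota shapes the transcriptome of hepatic sinusoidal ECs. It compared 6 CONV-R with 5 GF mice, with 1 library per mouse. All were male C57BL/6J mice of the same colonies, aged 10 to 12 weeks and fed the same standard diet, untreated and without any engineered allele. GF mice lived in sterile isolators, whereas CONV-R mice were held under specific-pathogen-free conditions, that is colonized but free of listed pathogens. Housing therefore differed together with colonization, and these cannot be told apart in this comparison. The paper also reports fewer sorted ECs and less RNA from GF than from CONV-R livers, and low viability of the sorted cells. The yields of cells and RNA cannot be told apart from colonization either. ECs were isolated with beads against CD146 and sorted as CD31+, CD105+ and CD146+ cells. CD31 is the product of *Pecam1* and CD146 that of *Mcam*, so the sort itself selected cells by the proteins of 2 of the 9 genes. The labels number the GF libraries 1, 2, 4, 5 and 6, and the GF values below follow this order.

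In the endothelium, VE-cadherin, encoded by *Cdh5*, joins neighbouring cells through its extracellular domain and binds catenins inside the cell. Junctional adhesion molecules of the immunoglobulin superfamily sit beside tight junctions, bind partners on the opposite cell or on passing leukocytes, and end in a short tail that docks to PDZ domains of scaffolds such as ZO-1, the product of *Tjp1*. Sinusoidal ECs of the liver are a special case, since they are perforated by fenestrae and lack a continuous basement membrane. Their junctions leave the exchange of plasma with hepatocytes open, in contrast to those of the brain or of large vessels.

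The 4 members of the junctional adhesion molecule family are shown by the last 30 coding bases of their transcripts, because this is the end of the tail by which they bind junction scaffolds and because related genes can share reads. Sequences are those of GENCODE M21 transcripts on GRCm38, read 5′ to 3′ on the coding strand. Capitals mark the last 3 codons and the stop codon. *Esam* (chr9:37537753-37537782, plus strand), *F11r* (chr1:171463065-171463094, plus strand), *Jam2* (chr16:84822790-84822819, plus strand) and *Jam3* (chr9:27098366-27098395, minus strand) end as follows.
Esam: gcacagagtcaggctgggTCTCTTGTGTGA
F11r: ttcaaacagacctcgtcgTTCCTGGTGTGA
Jam2: ttcaagcacacaaaatccTTTATAATTTAA
Jam3: ttcagacacaaatcgtccTTTGTTATCTGA
On GRCm38, *Jam2* spans chr16:84774123-84825928 (plus strand, 6045 exon bases), *F11r* chr1:171437535-171464603 (plus), *Cdh5* chr8:104101625-104144511 (plus), *Pecam1* chr11:106654217-106750628 (minus), *Tjp1* chr7:65296165-65527781 (minus) and *Ocln* chr13:100496507-100552718 (minus). *Esam* (chr9:37528078-37538319, plus), *Mcam* (chr9:44134469-44142727, plus) and *Jam3* (chr9:27097384-27155421, minus) lie on the same chromosome. The longest identical stretch between transcripts of any 2 of these 4 genes was 12 to 13 bases, and 11 to 20 bases over the 36 pairs that the 9 genes form. Reads were 50 bases long, so no whole read could match 2 of the 9 genes exactly.

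Libraries held 7242717 to 16164588 counts, and the difference of the mean totals of the groups did not pass 0.05 (two-sided exact permutation test, p = 0.411). Expression is given as CPM, counts relative to the library total scaled by TMM normalization, and a difference as Log2FC of GF relative to CONV-R with its standard error (SE) and 95% confidence interval. A gene was called at an adjusted p below 0.05, from the quasi-likelihood test of edgeR and the Benjamini-Hochberg procedure over all 12905 tested genes. By this rule 965 genes or 7.48% were called, of which 620 (4.80% of those tested) were higher and 345 (2.67%) lower in GF mice. CONV-R 3 stood apart from the other CONV-R libraries on the second principal component, which held 15.8% of the variance (−48.1 against 6.01 to 17.6). GF 2 had counts on 22674 genes, against 15456 to 18495 in the other 10 libraries. The sinusoidal identity of the cells was visible in 10 of 10 listed markers, all with counts in each library, whose summed level ran from 37186 to 45805 CPM in CONV-R and from 35646 to 50125 CPM in GF mice.

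Of the 9 junction genes, 2 were called higher and 0 lower. That is 22.2% against 7.48% of all tested genes and, for higher calls alone, against 4.80%. The 9 were chosen with earlier results of these data known, so these shares are a description. With 1 library left out, *Jam2* was called in all 11 fits, *Esam* in 5, *Mcam* in 2, and *Cdh5*, *Pecam1* and *Ocln* in 1 each. The number of calls over all tested genes moved too, as given at the end. Log2FC was above 0 for 8 and below 0 for 1 of the 9, with a median of 0.37 against −0.0061 over all tested genes. Unadjusted p lay under 0.05 for 7 of them, as for 2968 (23.0%) of all tested genes. In these bulk libraries, a change in the share of cells that express a gene and a change in RNA per cell cannot be told apart.

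**Figure D1:**
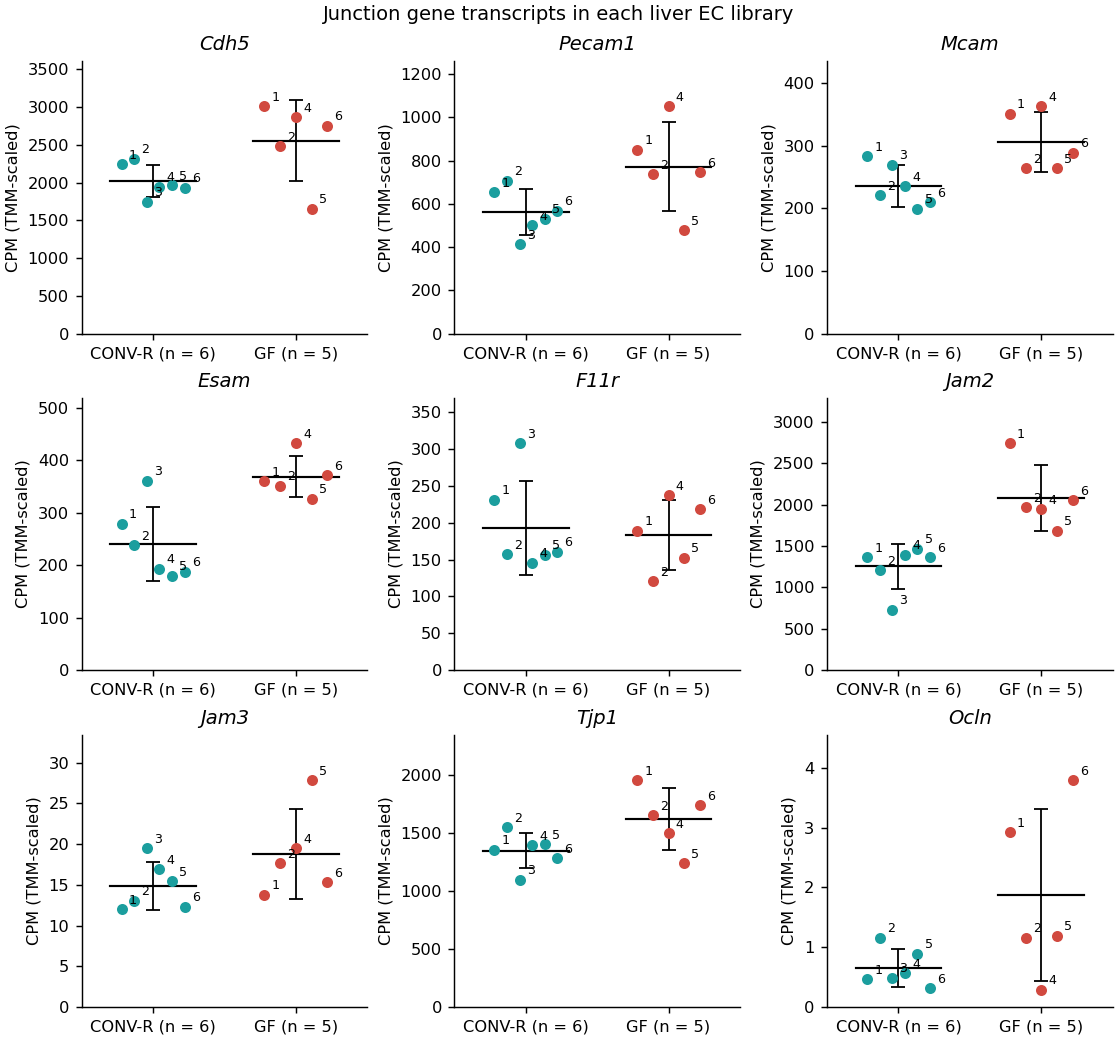
Level of each junction gene (CPM, TMM-scaled, linear axis from 0) in 6 CONV-R (turquoise) and 5 GF (red) libraries; numbers are replicate labels, horizontal lines group means and error bars SD. *Jam2* is the 1 gene whose groups do not overlap, with GF libraries at 1685 CPM or more and CONV-R libraries at 1469 CPM or less.

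*Cdh5* was the most abundant of the 9 transcripts. Its level in CONV-R mice ran from 1749.6 CPM over a median of 1957 to 2315.5 CPM. In GF mice it was 3009.6, 2481, 2864, 1657 and 2754 CPM. Thus, 4 GF libraries lay above every CONV-R library, whereas GF 5 lay below all of them. Group means were 2026 ± 213 CPM (SD, n = 6) and 2553 ± 537 CPM (SD, n = 5), with a Log2FC of 0.33 (SE 0.14, interval 0.05 to 0.62). *Cdh5* did not pass the threshold (adjusted p = 0.149 in edgeR's quasi-likelihood test). Without GF 5, however, it was called, with a Log2FC of 0.45 (adjusted p = 0.0112).

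*Pecam1*, the homophilic receptor CD31 that also guides leukocytes through the vessel wall, also had its lowest GF level in GF 5 and its lowest CONV-R level in CONV-R 3, as *Cdh5* did. Levels ran from 412 over a median of 550 to 707 CPM in CONV-R mice. They were 849, 736, 1049.9, 479 and 746 CPM in GF mice. Again 4 GF libraries exceeded the CONV-R maximum and GF 5 fell inside the CONV-R range, near its lower end. The Log2FC was 0.46 (SE 0.17, interval 0.10 to 0.81; adjusted p = 0.112, edgeR), and without GF 5 it was 0.59 (adjusted p = 0.0196).

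*Mcam* encodes CD146, an immunoglobulin-like adhesion molecule of vascular cells. It ranged from 199 over a median of 228 to 283 CPM in CONV-R mice. In GF mice it reached 351, 264, 362, 264 and 289 CPM. All 5 GF libraries lay above the CONV-R median and 3 of them above the CONV-R maximum. The Log2FC of 0.37 (SE 0.12, interval 0.11 to 0.64) did not pass the threshold (adjusted p = 0.0764, edgeR). The gene was called without CONV-R 1 (adjusted p = 0.0442), without GF 5 (0.0484), and when libraries were paired by replicate number (0.0151). Since cells were sorted for CD31 and CD146 protein, the levels of *Pecam1* and *Mcam* are those after selection for these proteins.

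*Jam2* encodes JAM-B, which in vessels binds JAM-C on the neighbouring cell and integrins on leukocytes. Its CONV-R levels ran from 729 over a median of 1365.5 to 1469 CPM. Its GF levels were 2741.5, 1970.0, 1943, 1685 and 2056 CPM. Every GF library lay above every CONV-R library, as was the case for 721 (5.59%) of all tested genes in either direction. Mean levels were 1255 ± 272 CPM (SD, n = 6) and 2079 ± 395 CPM (SD, n = 5), which gives a Log2FC of 0.73 (SE 0.16, interval 0.39 to 1.07; adjusted p = 0.0103, edgeR). CONV-R 3 was the lowest library by a wide margin, with the next at 1205 CPM. *Jam2* was called in each of 11 fits that left out 1 library, with Log2FC between 0.61 and 0.80, so the call did not rest on CONV-R 3.

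*Esam*, the endothelial cell-selective adhesion molecule of tight junctions, was the other gene called. CONV-R levels ran from 180 over a median of 216 to 362 CPM. GF levels were 361, 352, 433, 327 and 372 CPM. CONV-R 3, which was lowest for *Jam2*, was highest for *Esam*, and it alone reached the GF range, since the other 5 CONV-R libraries stayed at 279 CPM or below. Means were 240.1 ± 70.4 CPM (SD, n = 6) and 369 ± 39.4 CPM (SD, n = 5), with a Log2FC of 0.62 (SE 0.16, interval 0.28 to 0.96; adjusted p = 0.0261, edgeR). This call depended on the libraries included. Leaving out CONV-R 2, 4, 5 or 6 raised the adjusted p to 0.0563, 0.0713, 0.0635 and 0.0630, and leaving out GF 4 or GF 6 raised it to 0.0643 and 0.0589, with Log2FC no lower than 0.54.

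*F11r* encodes JAM-A, a junctional adhesion molecule shared by endothelium, epithelium, leukocytes and platelets. Its levels ran from 146 over a median of 159 to 308 CPM in CONV-R and were 189, 121, 237, 152 and 218 CPM in GF mice. The groups overlapped, with CONV-R 3 the highest of all 11 libraries and GF 2 the lowest. The Log2FC was −0.071 (SE 0.20, adjusted p = 0.880, edgeR), and its interval of −0.50 to 0.36 leaves room for changes of up to 0.71-fold or 1.28-fold. Without CONV-R 3 the Log2FC was 0.11, so that its sign was not determined by these data.

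*Jam3*, which encodes JAM-C, was weakly expressed, with 1990 counts over the 11 libraries. CONV-R levels ran from 12.02 over a median of 14.2 to 19.5 CPM, and GF levels were 13.8, 17.7, 19.5, 27.9 and 15.3 CPM. GF 5, the lowest GF library for 6 of the other members, was the highest here. The Log2FC of 0.34 (SE 0.20, interval −0.08 to 0.76) was not called (adjusted p = 0.328, edgeR), nor was it in any of 11 fits with 1 library left out, where it ran from 0.16, without GF 5, to 0.44. The antisense gene *Gm48796* covers 1159 bases or 36.2% of the exon bases of *Jam3*, and the strand setting of the counting is not given in the sources used here, so reads of this pair cannot be told apart. For *Mcam*, the overlap with the antisense gene *Gm10687* was 17 bases (0.507%).

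**Figure D2:**
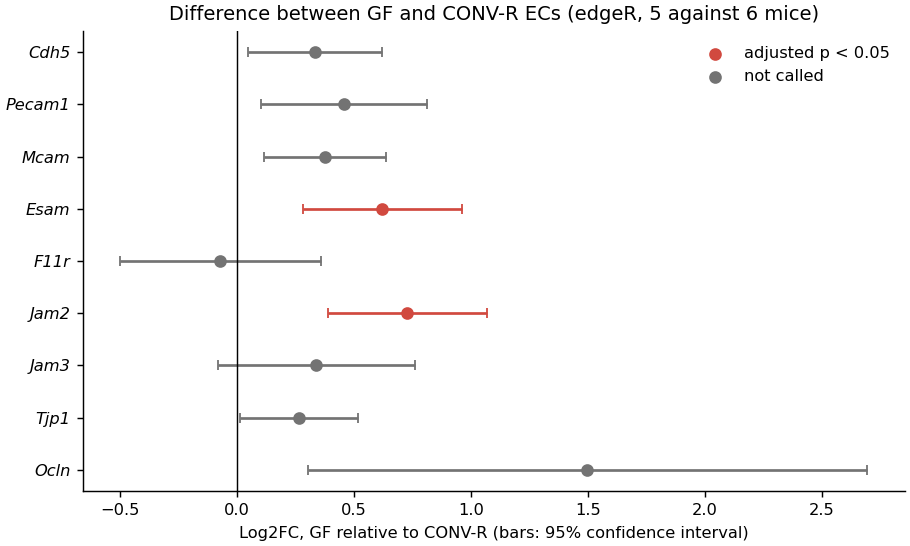
Log2FC of GF relative to CONV-R mice for the 9 junction genes from edgeR's quasi-likelihood fit (points) with 95% confidence intervals (bars); red marks an adjusted p below 0.05. *Esam* (0.62) and *Jam2* (0.73) are called, *F11r* lies at −0.071, and *Ocln* has the widest interval, 0.30 to 2.69.

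*Tjp1* encodes ZO-1, the scaffold that ties junctional membrane proteins to actin. CONV-R levels ran from 1099 over a median of 1379 to 1554 CPM. GF levels were 1962, 1659, 1503, 1243 and 1743.5 CPM. Of the GF libraries, 3 exceeded the CONV-R maximum and GF 5 lay below the CONV-R median. The Log2FC was 0.26 (SE 0.12, interval 0.01 to 0.52) with an adjusted p of 0.197 (edgeR), and no fit that left out 1 library called it (0.0564 to 0.412).

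*Ocln*, which encodes the tight junction protein occludin of epithelia and of tight vascular barriers, was close to the limit of detection, with 49 counts in all CONV-R and 97 counts in all GF libraries. CONV-R levels ran from 0.310 over a median of 0.527 to 1.16 CPM, and GF levels were 2.92, 1.16, 0.286, 1.19 and 3.80 CPM, from 45, 12, 3, 9 and 28 counts. GF 6 and GF 1 were the high libraries, GF 4 was the lowest of all 11, and the groups overlapped. *Ocln* passed the filter on low counts through 2 CONV-R and 4 GF libraries that reached 0.8294 CPM. Its Log2FC of 1.498 (SE 0.57, interval 0.30 to 2.69) was not called (adjusted p = 0.121, edgeR), but it was without GF 4 (0.0490). On the deposited log2 values its Log2FC was 0.76 (adjusted p = 0.163, limma).

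Markers of cholangiocytes, the bile duct epithelium, are given beside *Ocln*, since both were highest in the same GF libraries. The sum over 8 of 10 listed markers was 2.66 to 10.6 CPM in CONV-R mice and 52.6, 27.5, 14.3, 15.6 and 62.0 CPM in GF mice, with GF 6 and GF 1 highest as for *Ocln* (two-sided exact permutation test, adjusted p = 0.00974 over 9 marker lists). Of its 4 tested genes, 2 were called higher in GF mice. *Krt7*, *Epcam*, *Sox9* and *Cftr* did not pass the filter on low counts, which asked for 0.8294 CPM in 5 libraries. *Muc1* and *Krt19* lay under this level on average in CONV-R mice, so they passed it with the help of GF libraries. *Spp1*, the osteopontin gene, which macrophages also express, had 0 to 8.47 and 11.98 to 14.6 CPM, without overlap (Log2FC 2.496, adjusted p = 0.0161, edgeR), and so made up most of the sums in GF 4 and GF 5. *Muc1*, an epithelial mucin, had 0 to 1.24 and 0 to 14.8 CPM (Log2FC 3.12, adjusted p = 0.0473, edgeR). Among CONV-R libraries the sum and *Ocln* did not go together, since CONV-R 2 had the highest *Ocln* level and the lowest sum, and CONV-R 3 the highest sum with *Ocln* at 0.491 CPM. Each of the 8 markers had counts in at least 1 library, and *Krt19*, a keratin of bile ducts, was at 0.593 ± 0.504 CPM (SD, n = 6) in CONV-R and 4.52 ± 5.72 CPM (SD, n = 5) in GF mice (adjusted p = 0.0959, edgeR). The ranges of *Krt19*, *Muc1* and *Cdh1* overlapped between the groups. The genes whose log2 CPM followed *Ocln* most closely over the 11 libraries were *Cdh1*, the cadherin of epithelia and itself 1 of the 8 markers (Pearson r = 0.90), and *Tmc6* (r = 0.89). The part of bile duct cells in the *Ocln* values was not tested.

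Markers of several other cell types were compared in the same way over the 9 lists. Kupffer cell and macrophage markers summed to 86.0 to 222 CPM in CONV-R and 197 to 931 CPM in GF mice (adjusted p = 0.0244, exact permutation test), and 7 of 10 were called higher by edgeR. Platelet markers summed to 415 to 517 and 595 to 765 CPM (adjusted p = 0.00974, exact permutation test), of which *Clec1b*, also a gene of sinusoidal ECs, made up 402 and 535 CPM on average. *Itgb3*, the 1 platelet marker called, had 47.4 and 122 CPM (Log2FC 1.37, adjusted p = 0.0252, edgeR). *Gp1ba* and *Itga2b* had Log2FC of −0.45 and −0.28 (adjusted p of 0.294 and 0.718, edgeR), and *Pf4* and *Ppbp* of 0.63 and 0.0045 (adjusted p of 0.492 and 0.996, edgeR), whereas *Treml1* had no counts in CONV-R mice and *Gp9* stayed at 0.585 CPM or less. Lymphocyte and NK cell markers summed to 6.59 to 16.1 and 3.96 to 6.76 CPM (adjusted p = 0.0244, exact permutation test). Hepatocyte markers (24.4 to 60.3 and 30.4 to 79.1 CPM), stellate cell and fibroblast markers (57.8 to 95.6 and 68.3 to 91.4 CPM) and markers of lymphatic and large-vessel endothelium (268 to 516 and 356 to 994 CPM) had adjusted p of 0.495, 0.679 and 0.109 in this test. Of the 8 tested genes of the last list, 2 were called higher in GF mice by edgeR, both without overlap between the groups. *Cd34*, a sialomucin of vascular endothelium, had 7.99 to 16.9 and 21.2 to 37.3 CPM (Log2FC 1.205, adjusted p = 0.00183, edgeR), and *Hey1*, a Notch target, had 3.62 to 10.3 and 10.6 to 17.8 CPM (Log2FC 1.14, adjusted p = 0.0127, edgeR). Apart from 2 markers of the cholangiocyte and 1 of the hepatocyte list, which were not analysed here, every listed marker had counts in at least 1 library. With 1 library left out, the Kupffer cell sum missed the threshold without CONV-R 2, 3, 4, 5 or 6 or GF 1, 2 or 6 (adjusted p of 0.0536 to 0.0714, exact permutation test), the lymphocyte sum without GF 1, 2 or 6 (0.0643 to 0.0750), and the large-vessel sum passed it without GF 5 (0.0214). The part of these cells in the junction gene values was not tested.

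As a description, 10 pan-endothelial genes outside the 9 were summed, among them *Eng*, the gene of the sort marker CD105. Of these, *Robo4* was called higher (Log2FC 0.51, adjusted p = 0.0336, edgeR) and *Erg* lower (Log2FC −0.68, adjusted p = 0.0122, edgeR), the latter without overlap between the groups. Their sum was 11251 to 15085 CPM in CONV-R and 15379, 15841, 14808, 11261 and 15251 CPM in GF mice (adjusted p = 0.451, exact permutation test). GF 5 and CONV-R 3 were lowest within their groups, as they were for *Cdh5*, *Pecam1*, *Jam2* and *Tjp1*. In the sum of sinusoidal markers, GF 5 was again lowest of its group (35646 CPM), whereas CONV-R 3 was highest (45805 CPM). The EC content of single libraries was not tested. Without GF 5, the pan-endothelial sum was higher in GF mice by 0.19 on the log2 scale (adjusted p = 0.0429, exact permutation test). It is the same omission with which *Cdh5*, *Pecam1* and *Mcam* passed the threshold. With libraries scaled to these 10 genes instead of by TMM normalization, the median of all genes moved to −0.10 and that of the 9 junction genes to 0.28, and *Jam2* (Log2FC 0.61) and *Esam* (0.53) were still called.

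**Figure D3:**
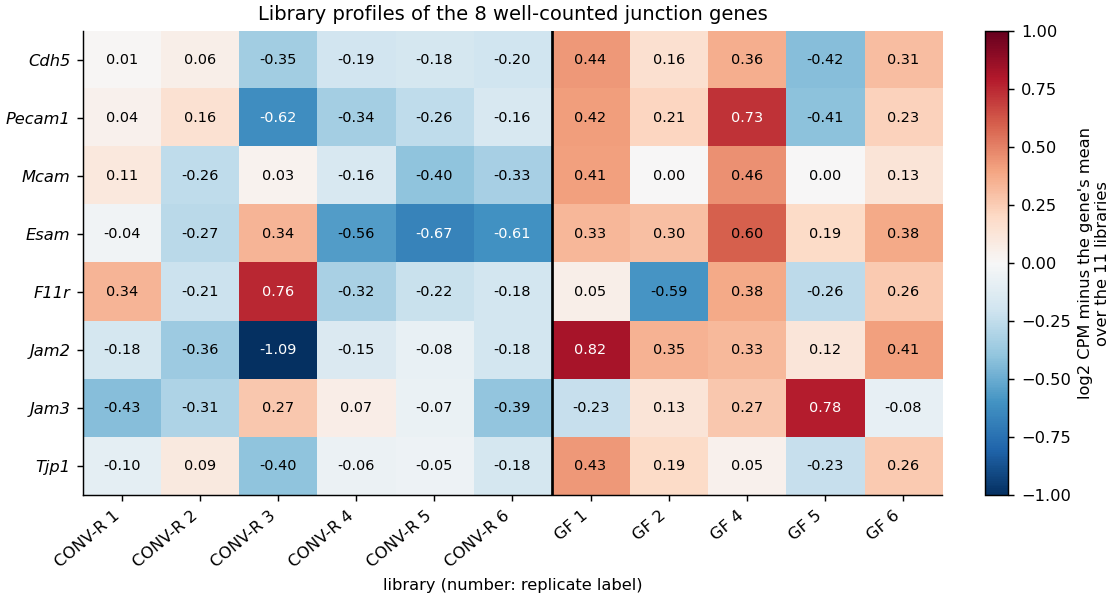
Deviation of log2 CPM from the gene's own mean over the 11 libraries (colour and printed value) for 8 junction genes (vertical axis, *Ocln* left out for its low counts) in 6 CONV-R and 5 GF libraries (horizontal axis). GF 5 is blue for *Cdh5*, *Pecam1*, *F11r* and *Tjp1*, and CONV-R 3 is blue for *Jam2*, *Pecam1*, *Tjp1* and *Cdh5* but red for *F11r*, *Esam* and *Jam3*.

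The library profiles show that the 9 genes did not move as a block. In CONV-R 3, the deviation from the gene's mean log2 CPM was −1.09 for *Jam2* and −0.62 for *Pecam1*, whereas it was 0.76 for *F11r* and 0.34 for *Esam*. This library was lowest of its group for 4 and highest for 3 of the 9 genes. GF 5 was lowest of the GF libraries for 6 and highest for 1. CONV-R 3, GF 5 and GF 6 were also the 3 libraries with the fewest counts. Whether depth had a part in these profiles was not tested.

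Per kilobase of exon, which allows levels to be compared between genes, the 9 transcripts spanned more than 3 orders of magnitude. In CONV-R mice the order of mean levels was *Cdh5* (482 ± 50.7 CPM per kb), *Jam2* (208 ± 45), *Tjp1* (173 ± 19.3), *Pecam1* (90.3 ± 17.1), *Esam* (83.8 ± 24.6), *F11r* (72.5 ± 24.1), *Mcam* (70.5 ± 10.02), *Jam3* (4.65 ± 0.928) and *Ocln* (0.153 ± 0.0749; all SD, n = 6). *Cdh5* was separated from the next gene in all 6 libraries, and *Jam3* and *Ocln* each lay below the gene before them in all 6. By contrast, *Jam2* and *Tjp1* overlapped, and so did each neighbouring pair from *Pecam1* to *Mcam*. Within single CONV-R libraries, *Jam2* exceeded *Tjp1* in 5 of 6, with CONV-R 3 the exception.

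In GF mice the order was the same except that *Esam* (129 ± 13.7 CPM per kb; SD, n = 5) stood before *Pecam1* (124 ± 33.2) and *Mcam* (91.3 ± 14.2) before *F11r* (69.0 ± 17.8). The ranges of *Esam* and *Pecam1* overlapped, as did those of *Mcam* and *F11r*, so neither exchange of places exceeded the spread between mice. Within a library, *Mcam* stood above *F11r* in all 5 GF mice and in 4 of 6 CONV-R mice, the exceptions being CONV-R 1 and 3, whose values put the CONV-R mean of *F11r* first. *Jam2* rose to 344 ± 65.4 CPM per kb and was separated from *Tjp1* (208 ± 34.4) in all 5 libraries. *Cdh5* (607 ± 128) and *Jam2* overlapped between libraries, although *Cdh5* was higher within each of the 5. *Jam3* (5.89 ± 1.72) and *Ocln* (0.443 ± 0.341) stayed at the bottom. Among the junctional adhesion molecules, *Jam2* was thus the most abundant on average in both groups, and its opposite-side partner *Jam3* was 1 of the 2 scarcest members. The level of *Jam3* carries the limit of its overlap with *Gm48796*, whose effect on the counts was not tested.

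**Figure D4:**
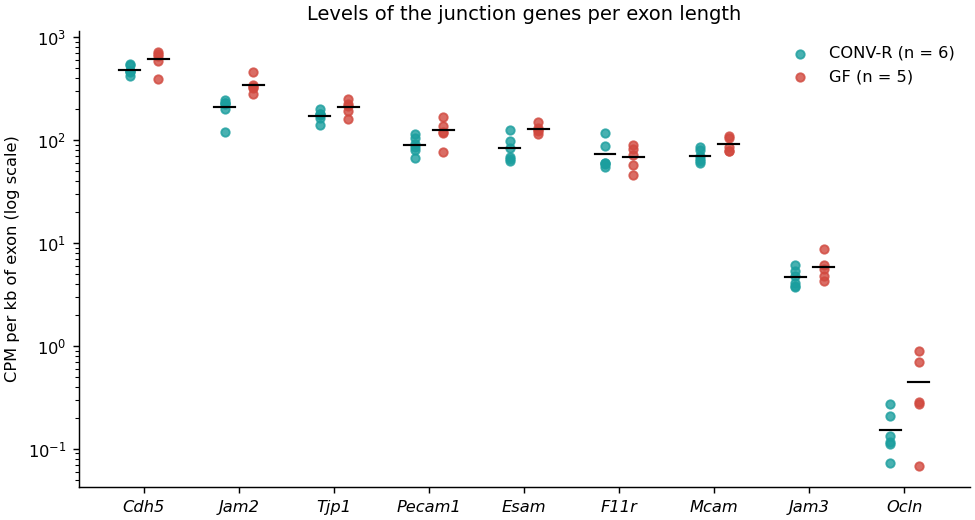
Level of each junction gene per kilobase of exon (vertical axis, CPM per kb, log scale) in 6 CONV-R (turquoise) and 5 GF (red) libraries, ordered by the CONV-R mean; black lines are group means. *Cdh5*, *Jam2* and *Tjp1* lie highest, and *Ocln* lies below 1 CPM per kb in every library.

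Ratios within a library do not depend on its scaling and are given as a description. For every 100 *Cdh5* counts there were 61.9 ± 13.0 *Jam2* counts in CONV-R (SD, n = 6; 41.6 to 74.7) and 82.9 ± 13.5 in GF mice (SD, n = 5; 67.9 to 102), with overlapping ranges. *Pecam1* (27.6 ± 2.62 and 30.1 ± 3.79 per 100 *Cdh5* counts), *Tjp1* (66.7 ± 4.51 and 64.6 ± 8.11) and *Mcam* (11.8 ± 2.12 and 12.3 ± 2.22) kept means that differed by less than 1 SD of either group. *Esam*, at 12.04 ± 4.38 and 14.9 ± 2.94 counts on this scale, did so too. *F11r* came to 9.74 ± 4.03 and 7.32 ± 1.72 counts. Between *Jam2* and *F11r*, the ratio was 7.23 ± 2.73 counts per count in CONV-R and 11.9 ± 3.40 in GF mice. These ranges overlapped too (2.37 to 9.58 and 8.18 to 16.3).

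The transcripts most like each gene across the 11 libraries, by Pearson's r of log2 CPM, differed from gene to gene. *Jam2* was followed most closely by *Pgm2l1* (r = 0.98) and *Avl9* (r = 0.96), *Esam* by *Mif* (r = 0.95) among those reported, and *F11r* by *Coro1b* (r = 0.96) and *Usp22* (r = 0.95). For *Cdh5* these were *Arl15* and *Fkbp4* (r = 0.97 each), for *Pecam1* *Ganab* (r = 0.96) and *Clptm1* (r = 0.95), and for *Mcam* *Ddah1* and *Gpihbp1* (r = 0.95 each). *Tjp1* was closest to *Hspa4* (r = 0.96) and *Clcc1* (r = 0.94), and *Jam3* to *Pdhx* (r = 0.94) and *Dtnbp1* (r = 0.91). No pair of the 9 genes shared a nearest transcript. These values are a description over 11 libraries, which share the group difference and library depth, and the nearest transcripts were picked from all tested genes.

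The proteins of the 9 genes work with catenins, claudins, scaffolds and regulators of actin. Of 90 such genes listed for comparison, 87 were in the count table, 72 could be tested, 9 were called higher and 3 lower in GF mice. This is 16.7% against 7.48% of all tested genes, and their median Log2FC was 0.070, with 41 above and 31 below 0. This list, too, was chosen with earlier results of these data known, so its share is a description. The 12 calls fell to 3 without CONV-R 4, to 4 without GF 6, to 5 to 7 without CONV-R 2, 5 or 6 or GF 1, 2 or 4, and to 8 with libraries scaled to endothelial genes. *Cldn5*, the main claudin of endothelium, *Rhob* and *Cd99* were not analysed here.

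**Figure D5:**
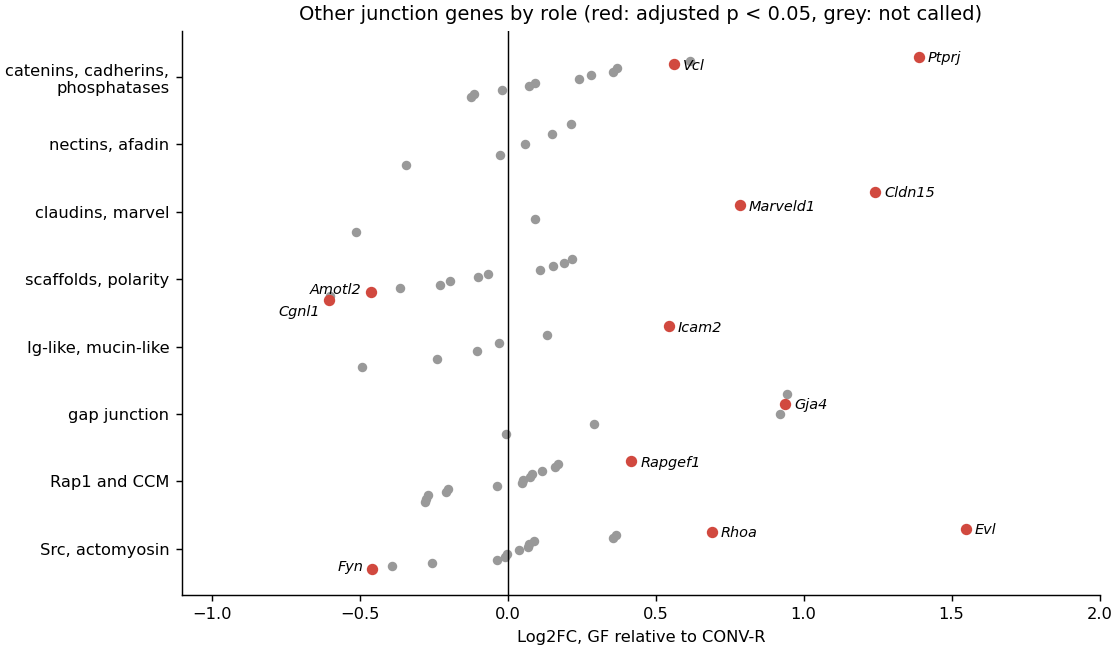
Log2FC of GF relative to CONV-R mice (horizontal axis) for 72 tested junction genes outside the 9, grouped by role (vertical axis, points spread within a role for legibility); red points with names have an adjusted p below 0.05 in edgeR's test. Called genes lie on the right in 6 of the 8 roles, those on the left are 2 scaffold genes and *Fyn*, and the nectin group has none.

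None of the 4 catenins named here was called with all 11 libraries. α-catenin (*Ctnna1*) had 499 to 534 CPM in CONV-R and 681, 616, 634, 460 and 635 CPM in GF mice, with GF 5 again below all CONV-R libraries. Its Log2FC was 0.24 (adjusted p = 0.169, edgeR), and without GF 5 it was called (0.33, adjusted p = 0.0257). β-catenin (*Ctnnb1*) had a Log2FC of −0.019 (SE 0.12), p120-catenin (*Ctnnd1*) of −0.12 (SE 0.11) and plakoglobin (*Jup*) of 0.61 (SE 0.20), with adjusted p of 0.953, 0.544 and 0.0759 (edgeR). *Jup* was called under 3 of 11 other settings, with DESeq2 (0.0412), with no filter on low counts (0.0218) and when libraries were paired by replicate number (0.0208). The receptor phosphatase VE-PTP (*Ptprb*), which binds VE-cadherin, stood far above all of these in CPM, with 15805 ± 692 CPM in CONV-R (SD, n = 6) and 16608 ± 1880 CPM in GF mice (SD, n = 5; Log2FC 0.071, adjusted p = 0.714, edgeR).

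Of the 12 tested genes of this role, 2 were called, both higher. Vinculin (*Vcl*), which links junctions under tension to actin, ran from 51.2 over a median of 87.3 to 104 CPM in CONV-R mice and was 120, 147, 129, 101 and 127 CPM in GF mice (Log2FC 0.56, SE 0.15, adjusted p = 0.0314, edgeR). GF 5 was the 1 GF library inside the CONV-R range. The receptor phosphatase *Ptprj* was low in CONV-R mice, with 4.50 over a median of 8.57 to 10.7 CPM, and had 19.8, 18.3, 9.90, 16.0 and 41.8 CPM in GF mice (Log2FC 1.39, SE 0.32, adjusted p = 0.0126, edgeR). Here GF 6, which had the highest sum of Kupffer cell markers, was far above the other libraries, and the part of macrophages in this value was not tested. Without GF 6 the Log2FC of *Ptprj* was lowest among the fits that left out 1 library, at 0.99, and it was still called, as in all 11 such fits (adjusted p up to 0.0463). *Vcl* was called in 5 of 11 (adjusted p up to 0.0795), and not with libraries scaled to endothelial genes (0.0807). None of the 5 nectin and afadin genes was called, with *Afdn* at a Log2FC of 0.21 (adjusted p = 0.187, edgeR).

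Among claudins and MARVEL-domain proteins, the relatives of occludin, 4 could be tested and 2 were called higher. *Marveld1* ran from 26.5 over a median of 31.1 to 53.7 CPM in CONV-R mice and had 93.9, 48.8, 64.2, 41.4 and 47.2 CPM in GF mice (Log2FC 0.78, adjusted p = 0.0337, edgeR). CONV-R 1 reached the GF range and GF 1 stood above the rest. *Cldn15*, a pore-forming claudin, was low throughout, with 1.02 over a median of 3.59 to 4.89 CPM and with 7.86, 8.02, 3.52, 12.7 and 8.95 CPM (Log2FC 1.24, adjusted p = 0.0449, edgeR). These calls held in 4 and 2 of 11 fits with 1 library left out. Under the other settings, that of *Marveld1* was lost in the libraries of the pairing without the block (0.0564), and that of *Cldn15* was lost with libraries scaled to endothelial genes (0.0859), with limma voom (0.0567), with upper quartile scaling (0.0520) and when libraries were paired by replicate number (0.0523; 0.0631 in the same libraries unpaired).

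Both called scaffold genes were lower in GF mice, out of 12 tested. *Amotl2*, an angiomotin-like protein that couples VE-cadherin to actin, ran from 240 over a median of 299.6 to 354 CPM in CONV-R mice and was 237, 273, 199, 175 and 216 CPM in GF mice (Log2FC −0.46, SE 0.13, adjusted p = 0.0382, edgeR). Only GF 2 lay inside the CONV-R range. *Cgnl1*, which encodes paracingulin, had 54.4 over a median of 69.9 to 94.3 CPM and 45.02, 72.4, 37.2, 41.6 and 36.3 CPM (Log2FC −0.60, SE 0.18), just inside the threshold (adjusted p = 0.04998, edgeR). GF 2 was again the 1 GF library within the CONV-R range, and without it the adjusted p of *Cgnl1* was 0.00496. *Amotl2* was called in 3 and *Cgnl1* in 2 of 11 fits with 1 library left out, and *Cgnl1* was not called with at least 10 counts required in every library (0.0517).

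Of 6 further immunoglobulin-like and mucin-like contact genes, *Icam2*, a leukocyte ligand at endothelial junctions, was called higher. It ran from 59.1 over a median of 74.7 to 108 CPM in CONV-R mice and had 118, 109, 119, 96.5 and 120 CPM in GF mice (Log2FC 0.54, SE 0.15, adjusted p = 0.0316, edgeR; called in 4 of 11 fits with 1 library left out). *Emcn*, the sialomucin endomucin, had a Log2FC of 0.13 (adjusted p = 0.658, edgeR).

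The clearest difference among the junction genes outside the 9 lay in a gap junction gene. *Gja4* encodes connexin 37, which couples ECs electrically and is known from arterial endothelium. It ran from 67.1 over a median of 87.2 to 131 CPM in CONV-R mice. In GF mice it was 183, 164, 178, 170.0 and 202 CPM, without overlap between the groups. Its Log2FC was 0.94 (SE 0.16, interval 0.61 to 1.27; adjusted p = 0.00141, edgeR), and it was called in all 11 fits with 1 library left out. *Gja5*, the connexin 40 gene, had a similar Log2FC of 0.92 (SE 0.28) and missed the threshold (adjusted p = 0.0541, edgeR), but was called by DESeq2 (0.0187), with no filter on low counts (0.00524) and when libraries were paired by replicate number (0.0353). With 1 library left out it was called in 3 of 11 fits and its Log2FC ran from 0.54, without GF 1, to 1.09. Its GF levels were 76.0, 27.8, 28.8, 28.8 and 36.6 CPM against 13.0 to 33.4 CPM in CONV-R mice, and GF 1, the high library, also had the largest sum of large-vessel markers, 994 CPM. That list includes *Gja5* itself, and *Cd34* and *Hey1* of the same list were called higher in GF mice too. The part of large-vessel ECs in the values of *Gja4* and *Gja5* was not tested.

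Of the genes that stabilise junctions through Rap1 and the CCM complex, 1 of 14 was called, *Rapgef1*, an exchange factor for Rap1. It ran from 218 over a median of 235 to 307 CPM in CONV-R mice and had 392, 308, 294, 282 and 360.0 CPM in GF mice (Log2FC 0.42, SE 0.12, adjusted p = 0.0395, edgeR; called in 3 of 11 fits with 1 library left out). It was called under 7 of 11 other settings, and not with libraries scaled to endothelial genes (0.0966), by upper quartile scaling (0.0587), with no filter (0.0638) or in the libraries of the pairing without the block (0.0586). Of 14 genes linked to the opening of junctions, such as Src family kinases, small GTPases and actomyosin, 2 were called higher and 1 lower. *Rhoa* had 57.8 over a median of 74.7 to 79.4 CPM in CONV-R and 127, 108, 148, 86.5 and 115 CPM in GF mice, so that the groups did not overlap (Log2FC 0.69, SE 0.13, adjusted p = 0.00422, edgeR; called in all 11 fits). *Fyn*, a Src family kinase, had 593 over a median of 625 to 857 CPM in CONV-R and 492, 474, 581, 441 and 431 CPM in GF mice, also without overlap (Log2FC −0.46, SE 0.12, adjusted p = 0.0243, edgeR; called in 8 of 11 fits, the exceptions being those without CONV-R 4, GF 2 or GF 6, at 0.0534, 0.0523 and 0.0724). *Evl*, an actin regulator, rested on 205 counts in all and was called at a Log2FC of 1.55 (SE 0.45, adjusted p = 0.0428, edgeR; called in 2 of 11 fits with 1 library left out). Its call was lost with libraries scaled to endothelial genes (0.0762), with limma voom (0.0527), with no filter (0.0807) and when libraries were paired by replicate number (0.0777; 0.0626 in the same libraries unpaired), and its Log2FC was 0.92 on the deposited log2 values.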

How the data were processed

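Libraries of sorted ECs from 6 CONV-R and 5 GF livers were compared, grouped by the treatment label. The raw counts per gene deposited by the authors came from single-end reads of amplified cDNA, which they trimmed with Trim Galore, mapped to GRCm38 (mm10) with STAR and counted with featureCounts; the annotation release and strand setting are not given in the sources used here. The authors left out 1 further GF library for its low number of mapped reads. They also deposited values on a log2 scale, normalized with the DESeq method, which were used as an alternative only. The labels name a TruSeq RNA kit and the methods a TruSeq DNA kit on amplified cDNA. Amplified reads are not independent molecules.

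Counts were filtered with filterByExpr, scaled by TMM normalization and tested with the quasi-likelihood test of edgeR 4.0.16 in R 4.3.3, without covariates, over 12905 genes (threshold 0.05). Libraries held 7242717 to 16164588 counts, so 1 count is 0.136 CPM in the shallowest, and weakly counted genes are limited by counting error. Sums of markers were compared by two-sided exact permutation tests over 462 splits. Gene models came from GENCODE M21 (29146 of 29307 genes matched by identifier). Likeness between genes used log2 CPM with a prior count of 2. Named genes are the 9 members, every called gene of the 90 comparison genes and a set of these always named, and the 2 genes most like each member; a few named genes are not reported here. The members and lists were chosen with earlier results of these data known. Alternatives were other scalings, filters and dispersions, DESeq2 1.42.0, limma 3.58.1, a replicate block, and libraries left out. The fit was checked on simulated counts. Figures used matplotlib 3.10.9 and Python 3.11.15. Other experiments of the study were not analysed here.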

Additional observations from a re-analysis of the deposited data

Results flagged for a closer look

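Of 78 groups of values looked at, 11 held 1 library far from the others of its group by Dixon's 95% criterion; chance gives such a library in about 1 in 20 groups. For the junction genes themselves this was the case once, for *Jam2* in CONV-R 3, which had 729 CPM against 1205 CPM in the next library. CONV-R 3 also stood apart as the lowest CONV-R library for *Rhoa* (57.8 CPM, next 72.4) and as the highest for *Ctnnd1* (286 CPM, next 226), *Emcn* (335 CPM, next 229) and *Fyn* (857 CPM, next 683.5). CONV-R 1 was highest for *Marveld1* (53.7 CPM, next 35.9) and *Rapgef1* (307 CPM, next 251). GF 2 was highest for *Cgnl1* (72.4 CPM, next 45.02) and GF 1 for *Gja5* (76.0 CPM, next 36.6). The sum of pan-endothelial genes was lowest in GF 5 (11261 CPM, next 14808), and the sum of Kupffer cell and macrophage markers was highest in GF 6 (931 CPM, next 357).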

How the results depend on the processing

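*Jam2* and *Esam* were called under all 11 alternatives of scaling, filter, test and pairing, with Log2FC of 0.59 to 0.74 and 0.53 to 0.79; with at least 10 counts in every library, *Ocln* was not tested. The number of members called, 2, ran from 1 to 5 with 1 library left out, at 1 without CONV-R 2, 4, 5 or 6 or GF 6 and at 5 without GF 5. It was also 5 without both CONV-R 3 and GF 5, an alternative chosen after seeing the data. Called comparison genes, 12, ran from 3 to 12 with 1 library left out, were 13 without both, and ran from 8 (scaling to endothelial genes) to 15 (DESeq2) otherwise. Over all genes, 965 calls became 1527 with DESeq2, where 15540 genes were tested, and 622 to 1260 with 1 library left out, the lowest without GF 6 and 625 without CONV-R 4, and 1299 without both CONV-R 3 and GF 5. Scaling to endothelial genes gave 778 calls, 403 higher and 375 lower, against 620 and 345 with TMM normalization. With replicate numbers as a replicate block, 1101 genes were called, against 931 in the same libraries without it, and 3 members, *Mcam* being added (adjusted p = 0.0151, edgeR). Correlations of same-numbered libraries ran from −0.014 to 0.20, and those of differently numbered libraries from −0.26 to 0.20. Whether same-numbered libraries share more than a number was not tested. Without gene length, 5 of 9 members kept their place in the order of levels in CONV-R and 7 of 9 in GF mice.

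Signs near 0 reversed. For *F11r* the Log2FC became 0.087 with the replicate block, 0.11 in its libraries without the block and hence without CONV-R 3, and 0.048 without GF 2, with a range of −0.18 to 0.16 over all fits that left out libraries. For *Ctnnb1* it became 0.015 on the deposited log2 values, 0.0086 without CONV-R 1, 0.020 without CONV-R 6 and 0.016 without GF 4, with a range of −0.14 to 0.020. For *Ptprb* it became −0.029 with scaling to endothelial genes. The sum of sinusoidal markers differed by −0.027 on the log2 scale without GF 4 and by up to 0.095 without GF 5. The causes were not tested. Low counts limit the values of *Ocln* (146 counts in all), *Evl* (205) and *Cldn15* (653).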
